A study of Mus musculus with 12 samples.

Results

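Collagens were described as the 44 genes, of 15774 in the table of raw gene counts, whose symbol is Col followed by a number, the letter a and a number. They were split by collagen type into 11 fibrillar genes, 6 basement membrane genes and 27 others. RNA came from cells labelled as astrocytes and isolated by FACS (fluorescence-activated sorting). All groups shared the genotype, wild-type C57BL/6J mice, and the tissue, cerebral cortex. The stroke groups, taken 1, 3, 7, 21 and 60 days afterwards, had the distal middle cerebral artery tied off for good and both common carotid arteries closed for 7 min. Sham animals received nothing but a skull surface lesion. Each of the 6 groups has 2 libraries, numbered replicate 1 and replicate 2. The surface marker of the sort, the age of the mice, when sham cells were collected and whether a library pools animals are not given in the sources used here. P-values therefore measure the spread between these samples, which may be technical.

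Collagens are triple helices of 3 chains, each chain the product of 1 gene, which fold in the endoplasmic reticulum and assemble into larger structures outside the cell. Fibrillar collagens form the tension-bearing fibrils of connective tissue. Type IV collagens form the sheet-like network of basement membranes, which in brain surround vessels and the glial limiting membrane. The others coat fibrils, form beaded filaments or short-chain networks, or span the cell membrane. Healthy brain tissue holds little fibrillar collagen outside the meninges and vessels, and fibroblasts, mural cells and endothelium are well-known sources of collagen there.

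Depth split by replicate number. Totals ran from 13006008 to 16575045 counts among the replicate 1 libraries and from 97056596 to 156128922 among the replicate 2 libraries, which were 6.30 to 9.63 times as deep within a group. The 13 astrocyte markers, among them Aldoc, Slc1a2 and Gja1, had counts in every group. Levels are given as CPM, counts divided by the scaled size of the library, with replicate 1 before replicate 2. The summed astrocyte level was 12350 and 11930 CPM in sham, 4777 and 16190 on day 1, 4041 and 10540 on day 3, 2424 and 1875 on day 7, 3961 and 3722 on day 21 and 4269 and 4283 on day 60. At day 7 against sham 9 of the 13 fell and 2 rose, where 19.8% of all genes were called lower and 23.2% higher. The summed level of 9 oligodendrocyte lineage markers was 10660 and 10090 CPM in the sham libraries, close to that of the astrocyte list, and 664 to 2035 CPM in the stroke libraries.

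Collagen transcripts were a trace of the sham libraries and made up as much as 22.6% of all counts in a day 7 library. The 44 genes took 0.0162% and 0.0285% of all counts in sham, 0.300% and 0.430% on day 1, 0.766% and 2.25% on day 3, 9.76% and 22.6% on day 7, 2.55% and 4.63% on day 21 and 1.15% and 2.02% on day 60. The exact binomial 95% interval of each share reaches at most 0.0144 percentage points to either side, which covers counting error only. Both libraries of each stroke group lay above both sham libraries, and both day 7 libraries lay above the other 10. In all 6 groups the share was larger in replicate 2, the deeper library, and the part of depth in this was not tested. In bulk samples fewer cells of a type and less RNA per cell cannot be told apart.

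Among the 3 classes, fibrillar genes took 7.92% and 20.1% of the counts of the day 7 libraries. At day 1 the basement membrane class held a larger share of counts than the fibrillar class in both libraries, and from day 3 on the fibrillar class held the largest of the 3 shares in every library.

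**Figure D1:**
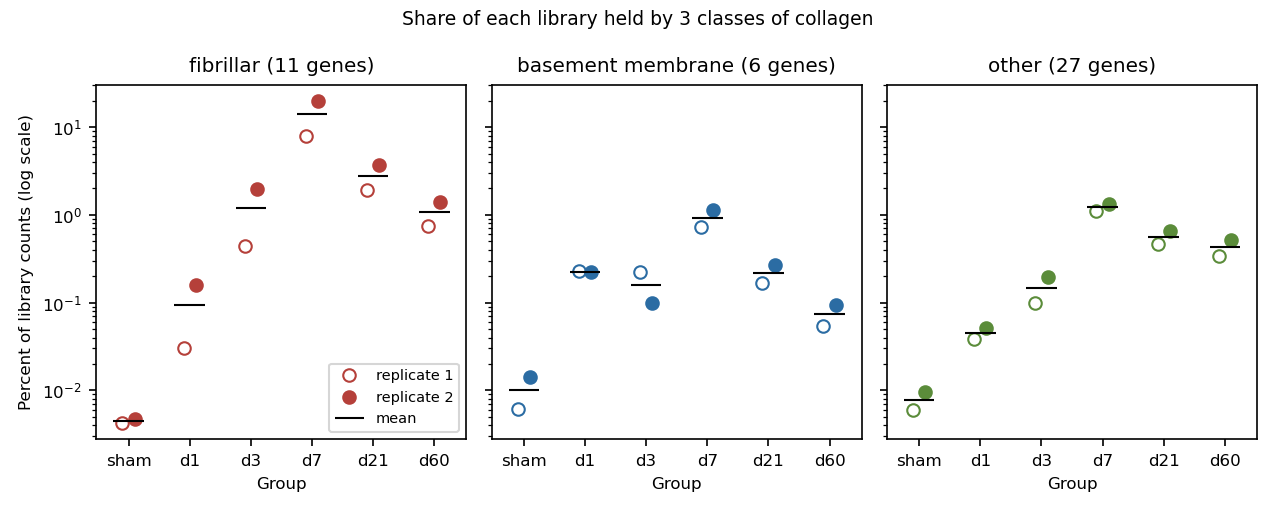
Percent of each library's counts (log scale) held by the 11 fibrillar, 6 basement membrane and 27 other collagen genes in each group; open circles are replicate 1, filled circles replicate 2 and bars the mean. All 3 classes peak at day 7, and at day 60 the class shares remain above those of both sham libraries.

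Calls were made with edgeR's quasi-likelihood F test at a Benjamini-Hochberg adjusted p under 0.05 over the 15635 genes tested, and all 44 collagens were among those tested. At day 1 against sham 23 collagens were higher and 2 lower, where 30.5% of all genes were called in either direction, 16.7% higher and 13.9% lower. At day 3 there were 26 higher and 1 lower, against 32.2% of all genes called, 18.0% higher and 14.2% lower. At day 7 the collagens counted 31 higher and 1 lower, against 43.0% of all genes called, 23.2% higher and 19.8% lower. At day 21 they counted 33 higher and 1 lower, against 33.2% of all genes called, 17.8% higher and 15.4% lower. At day 60 they counted 31 higher and 0 lower, against 31.5% of all genes called, 16.8% higher and 14.8% lower. The share of collagens called higher was 52.3%, 59.1%, 70.5%, 75.0% and 70.5% at the 5 times in turn, above the share of all genes each time. The median log2 fold change of the 44 genes over sham was 2.12, 3.71, 7.35, 5.62 and 4.61 at days 1, 3, 7, 21 and 60. Over all genes tested it was 0.06, 0.16, 0.13, 0.07 and 0.01. With genes at 0 counts in a group set to a bound of 3 counts per library, the medians over collagens were 1.96, 3.53, 6.87, 5.22 and 4.38. All 5 comparisons share the same pair of sham libraries.

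Of the 44 genes 30 had their highest mean at day 7, 6 at day 21, 5 at day 60 and 3 in sham. There were 21 collagens higher than sham at all 5 times, and 8 that were higher at none. The day 1 count rested most on single libraries. With all libraries 25 calls were made. Fewer were made when sham replicate 1, sham replicate 2 or day 1 replicate 2 was left out, each of which leaves 1 library in a group. A few genes called in those fits were not among the 25. Many of the 23 higher calls at day 1 did not hold whichever library was left out, while most of the 31 at day 7 did.

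**Figure D2:**
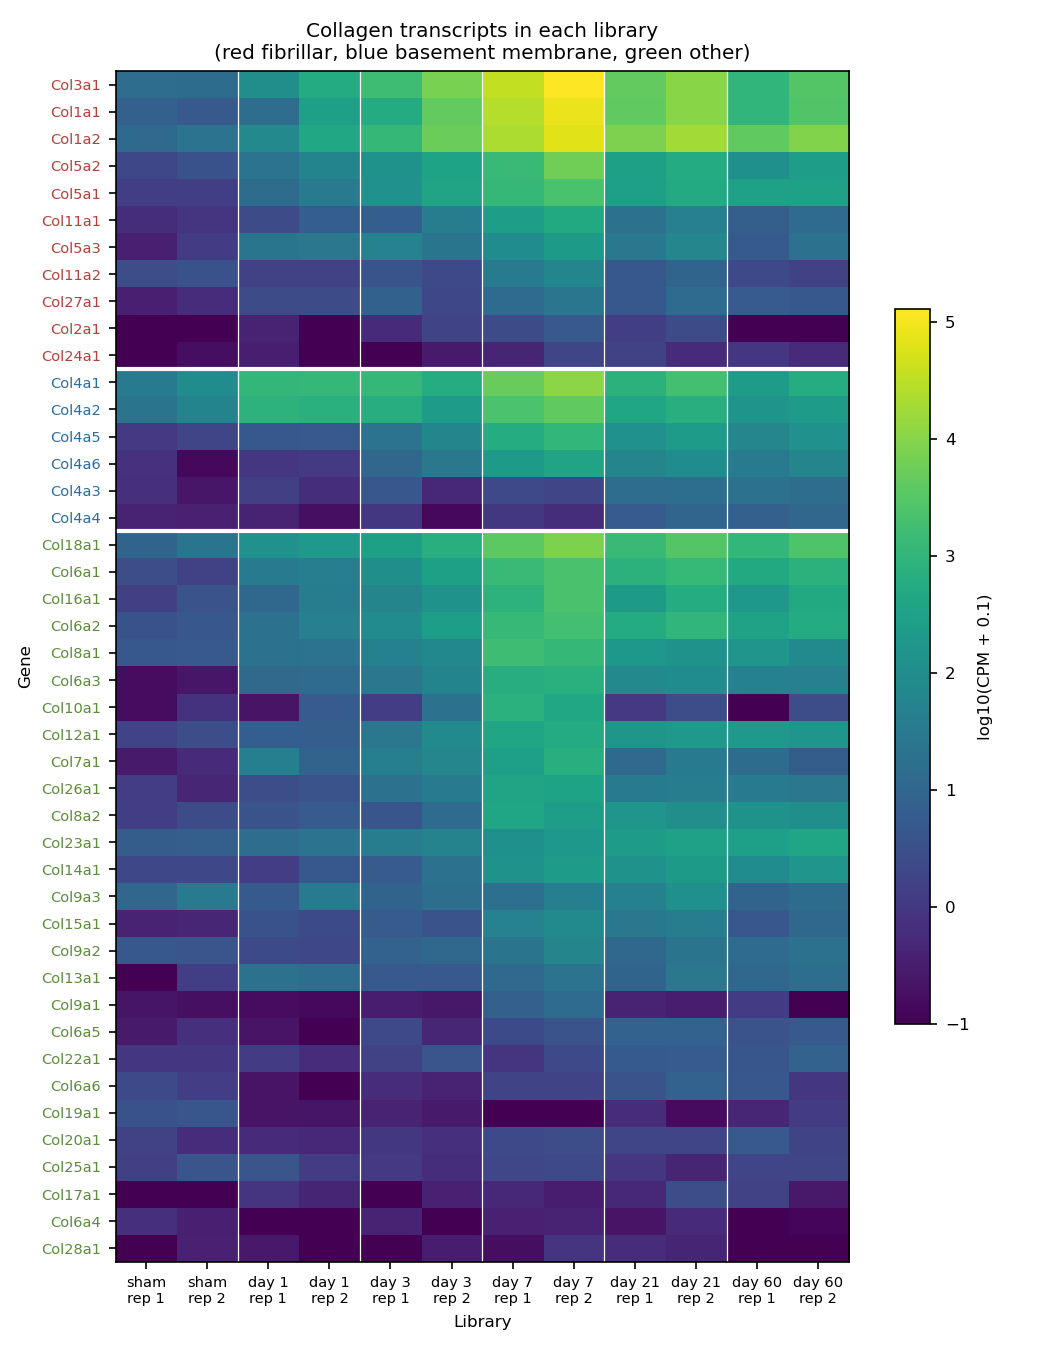
Level of each of the 44 collagens in each of the 12 libraries, as log10(CPM + 0.1), with classes separated by white lines and genes ordered within a class by their highest group mean. Most rows are brightest in the pair of day 7 libraries, while Col4a3, Col4a4 and Col23a1 are brightest at days 21 and 60 and Col19a1 is brightest in sham.

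Among fibrillar genes, Col3a1 encodes the chain of the type III homotrimer, which is plentiful in vessel walls and in young scar. It lies at chr1:45311538-45349706 on the plus strand (GRCm38, which is mm10). Col3a1 had 15.4 and 14.8 CPM in sham, 103 and 582 on day 1, 1620.1 and 7576 on day 3, 35731 and 129462 on day 7, 4372 and 10459.5 on day 21 and 1039 and 2994 on day 60. Every stroke library stood above both sham libraries, and the day 7 pair stood above all others. In both day 7 libraries no gene had more counts than Col3a1, which took 3.24% and 8.91% of them. Against sham its log2 fold change, here and below with its standard error, was 12.42 ± 1.58 (adjusted p = 0.00028) at day 7 and 7.06 ± 1.29 (adjusted p = 0.00329) at day 60.

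Type I collagen, the main fibril of skin, bone and scar, is built from Col1a1 and Col1a2 chains, whose genes lie on different chromosomes (chr11:94936224-94953042 and chr6:4504814-4541544, both on the plus strand). Col1a1 had 7.35 and 5.02 CPM in sham, 15.1 and 287 on day 1, 571 and 4395 on day 3, 26348 and 85889 on day 7, 4114 and 10866 on day 21 and 1061 and 2871 on day 60. Col1a2 had 12.4 and 21.3 CPM in sham, 76.7 and 428 on day 1, 1159.8 and 5533 on day 3, 22292 and 67031 on day 7, 7859 and 17935 on day 21 and 4270.4 and 9141 on day 60. For both, each stroke library was above both sham libraries and day 7 was highest. Col1a1 rose at day 7 (13.15 ± 2.02, adjusted p = 0.000698) and was still higher at day 60 (8.32 ± 1.70, adjusted p = 0.00569). Col1a2 rose likewise at day 7 (11.37 ± 1.47, adjusted p = 0.0003) and was higher at day 60 (8.64 ± 1.32, adjusted p = 0.00135).

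The day 1 libraries were far apart in all 3 of these genes, with Col1a1 at 287 CPM in replicate 2 and 15.1 CPM in replicate 1. At day 1 Col3a1 (4.51 ± 1.14, adjusted p = 0.0153), Col1a2 (3.90 ± 1.07, adjusted p = 0.0209) and Col1a1 (4.62 ± 1.44, adjusted p = 0.0348) passed the test, and none of these calls held in every fit with a library left out. For Col3a1 the adjusted p was 0.0916 and 0.0892 on leaving out sham replicates 1 and 2 and 0.0767 for day 1 replicate 2, and over the 12 such fits it ran 0.0126 to 0.0916. For Col1a2 it was 0.128 and 0.0809 on leaving out sham replicates 1 and 2 and 0.133 for day 1 replicate 2 (range 0.016 to 0.133). For Col1a1 it was 0.136 and 0.162 on leaving out sham replicates 1 and 2 and 0.459 for day 1 replicate 2 (range 0.0227 to 0.459).

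The promoters of Col3a1 and Col1a2 are shown because these genes rose together to the top of the day 7 libraries. Each runs from 250 bases before to 50 after the RefSeq start (GRCm38.p6), and RefSeq promoters were matched for 35 of the 44 genes. Col1a1, which rose with Col3a1 and Col1a2, is among the 9 genes without a matched promoter. Capitals mark the letters of 3 well-known promoter motifs, the TATA box (TATAAA), the CCAAT box (CCAAT) and the core of the GC box (GGGCGG), read on either strand. No marked motif overlaps another in the 4 windows printed here. The RefSeq start of Col1a2 lies inside the span of the gene given above.
Col3a1, chr1:45311288-45311587, plus strand: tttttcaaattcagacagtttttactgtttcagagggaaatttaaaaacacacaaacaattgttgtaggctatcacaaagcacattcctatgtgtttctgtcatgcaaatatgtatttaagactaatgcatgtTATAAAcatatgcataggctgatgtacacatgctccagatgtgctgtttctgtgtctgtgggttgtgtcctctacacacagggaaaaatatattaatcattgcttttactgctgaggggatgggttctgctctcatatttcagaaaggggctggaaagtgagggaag
Col1a2, chr6:4505368-4505667, plus strand: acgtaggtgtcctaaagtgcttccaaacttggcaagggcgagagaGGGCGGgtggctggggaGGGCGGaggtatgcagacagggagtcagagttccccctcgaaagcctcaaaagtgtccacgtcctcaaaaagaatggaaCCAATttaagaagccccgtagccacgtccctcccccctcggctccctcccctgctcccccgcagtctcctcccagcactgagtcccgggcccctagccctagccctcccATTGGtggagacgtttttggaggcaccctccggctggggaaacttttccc
The Col3a1 window holds 1 TATAAA, no CpG dinucleotide and 37.7% GC. The Col1a2 window holds 2 CCAAT and 2 GGGCGG matches, 13 CpG dinucleotides and 61.0% GC. Of the 38 collagen windows, some genes having more than 1, 13.2% held TATAAA, 34.2% CCAAT and 60.5% GGGCGG. The shares among all 32851 windows of the same length were 13.6%, 37.4% and 35.7%. The median GC content was 59.8% in collagen windows and 52.7% in all. These matches describe letters only.

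The 2 type V chains and the type XI chain with the next highest levels, minor fibrillar collagens that lie inside type I and type II fibrils and set their width, rose over the same span. Col5a2, next to Col3a1 on chromosome 1 with 24614 bases between them and on the other strand, had 2.03 and 3.42 CPM in sham, 20.8 and 57.1 on day 1, 135 and 356 on day 3, 1328 and 6059 on day 7, 290.3 and 563 on day 21 and 117 and 259 on day 60. Col5a1 had 1.25 and 1.23 CPM in sham, 14.7 and 33.6 on day 1, 125 and 377 on day 3, 1174 and 2271 on day 7, 279.9 and 543 on day 21 and 307 and 314 on day 60. Col11a1 had 0.538 and 0.731 CPM in sham, 2.33 and 6.59 on day 1, 6.58 and 38.8 on day 3, 265 and 517 on day 7, 19.3 and 45.2 on day 21 and 6.87 and 13.4 on day 60. For each of the 3, both day 7 libraries lay above those of every other group. At day 7 against sham the log2 fold changes were 10.39 ± 1.19 for Col5a2, 10.44 ± 0.90 for Col5a1 and 9.23 ± 1.14 for Col11a1, with adjusted p of 0.000169, 4.59e-05 and 0.00024 in that order.

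Col5a3, another type V chain, moved early. It had 0.239 and 1.07 CPM in sham, 23.7 and 26.2 on day 1, 51.6 and 23.8 on day 3, 96.3 and 210.5 on day 7, 28.5 and 68.4 on day 21 and 5.21 and 18.5 on day 60. At day 1 it was already 5.10 ± 0.89 log2 units above sham (adjusted p = 0.00363), and Col5a1 and Col5a3 were the fibrillar calls of day 1 that held whichever library was left out. Col11a2, the second type XI chain, rose at day 7 alone among the 5 times (4.02 ± 0.56, adjusted p = 0.00042). It had 2.63 and 3.39 CPM in sham, 1.39 and 1.49 on day 1, 3.8 and 2.28 on day 3, 32.6 and 65.3 on day 7, 4.65 and 9.03 on day 21 and 2.18 and 1.54 on day 60. The day 1 and day 60 libraries of Col11a2 lay below both sham libraries, with differences that did not pass the test.

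The remaining fibrillar genes were low. Col2a1, the cartilage collagen, had 0 counts in both sham libraries and in both day 60 libraries, and at day 7 it reached 2.42 and 5.09 CPM, at least 36.1-fold higher against a floor of 3 counts per sham library. It was called at days 3, 7 and 21, and its day 7 call was at adjusted p = 0.0128. The value at day 7 was 0.0826 on leaving out sham replicate 2 (range 0.0027 to 0.0826). At day 3 (0.0333) it was 0.0886 and 0.174 on leaving out sham replicates 1 and 2, 0.0923 for day 3 replicate 2, 0.0505 and 0.056 for day 7 replicates 1 and 2 and 0.0528 and 0.0536 for day 21 replicates 1 and 2 (range 0.00831 to 0.174), and at day 21 (0.0239) it was 0.0723 and 0.132 on leaving out sham replicates 1 and 2 and 0.0555 and 0.0769 for day 21 replicates 1 and 2 (range 0.00565 to 0.132). Col27a1 peaked at 13.4 and 24.6 CPM on day 7, against 0.239 and 0.491 CPM in sham (5.61 ± 0.88, adjusted p = 0.000768). Col24a1 stayed at or below 1.83 CPM in all libraries and was not called at any time. Of the 11 fibrillar genes 8, 9, 10, 9 and 8 were higher than sham at days 1, 3, 7, 21 and 60, and none was lower.

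Markers of fibroblasts, cells that make fibrillar collagen, moved in the same libraries. Of 15 fibroblast markers that are not collagens, among them Dcn, Lum, Fbln1 and Pdgfra, 11 were higher than sham at day 1, with 1 lower, and 12 were higher at each later time, with none lower. Over all genes 16.7% to 23.2% were called higher and 13.9% to 19.8% lower at those times. None of the 15 had 0 counts over a whole group. Their summed level was 94.7 and 97.1 CPM in sham, 1973 and 1475 on day 1, 2805 and 5997 on day 3, 6669 and 7864 on day 7, 12350 and 15700 on day 21 and 13140 and 16170 on day 60. The marker sum was thus higher at days 21 and 60 than at day 7, while the collagen share was lower. The list as a whole did not rise after day 7. Its median log2 difference from day 7 was 0.03 at day 21, with none called, where 0.441% of all genes were called. At day 60 the median was -0.43, with 1 marker called higher and 2 lower, where 1.55% of all genes were called higher and 2.39% lower. The most abundant marker after stroke was Dcn, a proteoglycan that binds collagen fibrils. Its means were 1910 CPM at day 7, 7460 CPM on day 21 and 8260 CPM on day 60, a large part of the sum. Among 13 mural cell markers the sum was 2108 and 2388 CPM on day 7 and 523 and 701 CPM in sham, most of it Pdgfrb at day 7, with 4 markers higher and 4 lower. At day 7 23.2% of all genes were called higher and 19.8% lower. The part of these cells in the collagen levels was not tested.

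**Figure D3:**
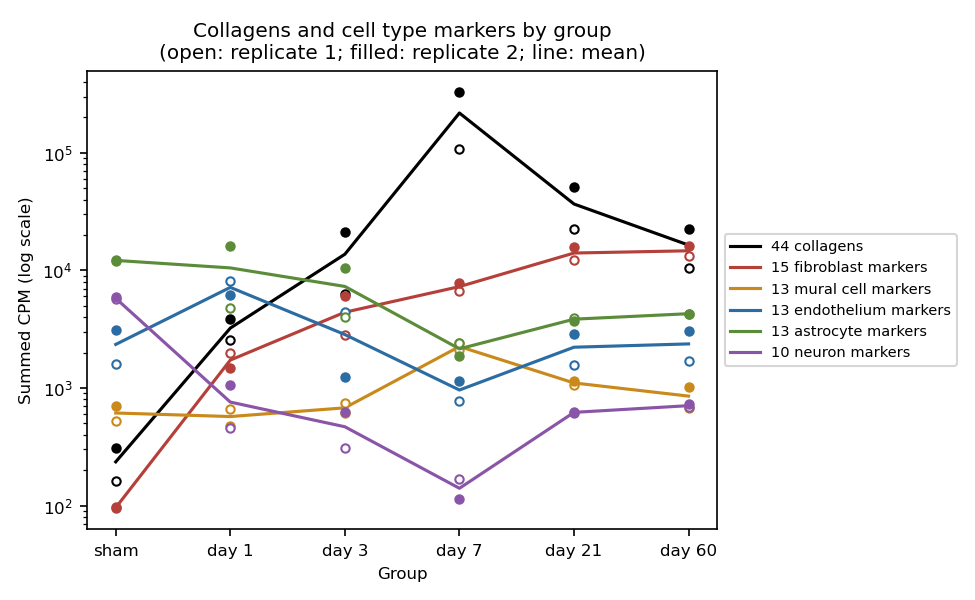
Summed CPM (log scale) of the 44 collagens and of the marker lists of 5 cell types in each group; open circles are replicate 1, filled circles replicate 2 and lines join the means. Collagens peak at day 7 and are lower by day 60, while the fibroblast sum is highest at days 21 and 60 and the neuron and astrocyte sums are lowest at day 7.

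Type IV genes fall into 3 head-to-head pairs, and the pairs are given in turn. Col4a1 and Col4a2, the chains of nearly all basement membranes, lie on opposite strands of chromosome 8 (chr8:11198423-11312826, minus, and chr8:11312805-11449287, plus), with starts 21 bases apart. Col4a1 had 34.6 and 92.4 CPM in sham, 1099 and 1207 on day 1, 1156 and 602 on day 3, 4823 and 10926 on day 7, 864 and 1916 on day 21 and 227 and 615 on day 60. Col4a2 had 22.8 and 58.1 CPM in sham, 878 and 774 on day 1, 627 and 244 on day 3, 2388 and 4078 on day 7, 402 and 700.2 on day 21 and 142 and 224 on day 60. Both stood above both sham libraries by day 1 and were highest at day 7, and in replicate 2 both were lower at day 3 than at day 1.

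Because their starts nearly touch, their windows of 300 bases share 78 bases, and they are shown together with the same motifs in capitals.
Col4a1, chr8:11312777-11313076, minus strand: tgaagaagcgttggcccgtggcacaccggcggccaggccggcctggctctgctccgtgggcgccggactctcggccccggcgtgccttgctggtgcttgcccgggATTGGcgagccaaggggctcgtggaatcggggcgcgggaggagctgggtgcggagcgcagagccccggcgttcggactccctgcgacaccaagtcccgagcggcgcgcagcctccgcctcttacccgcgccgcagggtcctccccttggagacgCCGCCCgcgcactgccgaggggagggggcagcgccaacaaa
Col4a2, chr8:11312555-11312854, plus strand: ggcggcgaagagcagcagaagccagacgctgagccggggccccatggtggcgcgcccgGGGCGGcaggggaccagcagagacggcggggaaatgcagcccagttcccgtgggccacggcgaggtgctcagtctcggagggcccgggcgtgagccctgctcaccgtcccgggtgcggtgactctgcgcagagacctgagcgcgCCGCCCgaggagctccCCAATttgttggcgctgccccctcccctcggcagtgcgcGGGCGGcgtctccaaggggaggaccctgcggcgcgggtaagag
Both windows hold 1 CCAAT match and no TATAAA match, with 1 GGGCGG match in the Col4a1 window and 3 in the Col4a2 window. The Col4a1 match is the last of the 3 Col4a2 matches, read on the other strand within the shared bases. The Col4a1 and Col4a2 windows hold 37 and 33 CpG dinucleotides in that order. The exons of the pair overlap by 22 bases on opposite strands, and whether counting used the strand is not given in the sources used here.

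At day 1 against sham Col4a1 (4.18 ± 0.78, adjusted p = 0.00464) and Col4a2 (4.35 ± 0.68, adjusted p = 0.00246) rose, and both calls held with each library left out. At day 7 the log2 fold changes were 6.95 ± 0.89 (adjusted p = 0.00028) for Col4a1 and 6.32 ± 0.74 (adjusted p = 0.000192) for Col4a2. At day 60 both were still called higher (2.73 ± 0.73, adjusted p = 0.0185 and 2.18 ± 0.62, adjusted p = 0.0235). Single libraries ended the day 60 calls. For Col4a1 the adjusted p was 0.121 on leaving out sham replicate 1 and 0.122 for day 60 replicate 2 (range 0.0211 to 0.122), and for Col4a2 it was 0.145 on leaving out sham replicate 1 and 0.109 for day 60 replicate 2 (range 0.0187 to 0.145).

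Endothelial cells lay down vessel basement membrane, and the sum of their 13 markers was highest at day 1. Their summed level was 8125 and 6197 CPM on day 1, against 1599 and 3088 CPM in sham. Of the 13, 7 were higher and none lower at day 1, where 16.7% of all genes were called higher. On day 3 the sum was 4456 and 1229 CPM. In replicate 2 it was lower than on day 1, as Col4a1 and Col4a2 were. In replicate 1 it was lower too, as Col4a2 was, while Col4a1 was slightly higher. At day 7 the sum was 770 and 1150 CPM, with no endothelial marker called, while Col4a1 reached its highest level. At that time 43.0% of all genes were called in either direction. The sum was 1571 and 2866 CPM on day 21 and 1686 and 3047 CPM on day 60. None of the 13 was at 0 over a group. The part of endothelial cells in the type IV levels was not tested.

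Col4a5 and Col4a6, whose trimer is known from smooth muscle basement membranes, lie on the X chromosome with starts 1309 bases apart. Col4a5 had 0.956 and 1.79 CPM in sham, 4.67 and 4.88 on day 1, 21.2 and 62.2 on day 3, 596 and 1084 on day 7, 122 and 222 on day 21 and 66.2 and 127 on day 60. Col4a6 had 0.657 and 0.0385 CPM in sham, 0.834 and 0.966 on day 1, 10.1 and 27.2 on day 3, 216 and 373 on day 7, 61.7 and 95.5 on day 21 and 35.1 and 59.5 on day 60. At day 1 neither passed the test, with log2 fold changes of 1.77 ± 0.61 (adjusted p = 0.0512) for Col4a5 and 1.83 ± 1.02 (adjusted p = 0.199) for Col4a6. With the replicate number as a block Col4a5 did pass at day 1 (adjusted p = 0.00235). The Col4a5 value ran 0.0346 to 0.232 over the fits with a library left out, passing at 0.0355 and 0.0346 on leaving out day 3 replicates 1 and 2. The Col4a6 value ran 0.0197 to 0.691, passing at 0.0197 on leaving out sham replicate 1. At day 7 the pair was 9.22 ± 0.83 and 10.16 ± 1.26 log2 units above sham (adjusted p = 5.58e-05 and 0.00025). Both were still higher at day 60 (6.10 ± 0.73, adjusted p = 0.000338 and 7.53 ± 1.16, adjusted p = 0.00135), and these calls held with each library left out.

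Col4a3 and Col4a4, which with Col4a5 form the network of the kidney filter, are 72 bases apart at their starts on chromosome 1. Col4a3 had 0.597 and 0.135 CPM in sham, 1.33 and 0.539 on day 1, 4.37 and 0.384 on day 3, 2.15 and 1.78 on day 7, 15.2 and 16.3 on day 21 and 19.6 and 15.3 on day 60. Col4a4, which is given here because it is the partner, had 0.299 and 0.26 CPM in sham, 0.278 and 0.0743 on day 1, 0.886 and 0.0365 on day 3, 0.873 and 0.539 on day 7, 5.66 and 9.52 on day 21 and 7.56 and 10.1 on day 60. The 4 libraries of days 21 and 60 lay above the other 8 for both genes. Col4a3 was higher than sham at day 21 (5.62 ± 1.19, adjusted p = 0.00588) and day 60 (5.77 ± 1.20, adjusted p = 0.00608). Col4a4 was called at the same times (4.78 ± 1.26, adjusted p = 0.0161, and 4.99 ± 1.27, adjusted p = 0.0152). The Col4a4 value at day 21 was 0.084 and 0.0956 on leaving out sham replicates 1 and 2 and 0.0681 for day 21 replicate 2 (range 0.00244 to 0.0956), and at day 60 it was 0.0807 and 0.0916 on leaving out sham replicates 1 and 2 and 0.0502 for day 60 replicate 2 (range 0.00239 to 0.0916).

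The difference of this pair at day 60 against day 7 did not pass the test, at 3.16 ± 1.03 (adjusted p = 0.115) for Col4a3 and 3.67 ± 1.19 (adjusted p = 0.112) for Col4a4. It passed with the replicate block, at adjusted p = 0.0311 and 0.0459, and Col4a3 was then also above sham at day 3 (0.0344) and day 7 (0.0173). Of the 6 basement membrane genes 2, 4, 4, 6 and 6 were higher than sham at days 1, 3, 7, 21 and 60.

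**Figure D4:**
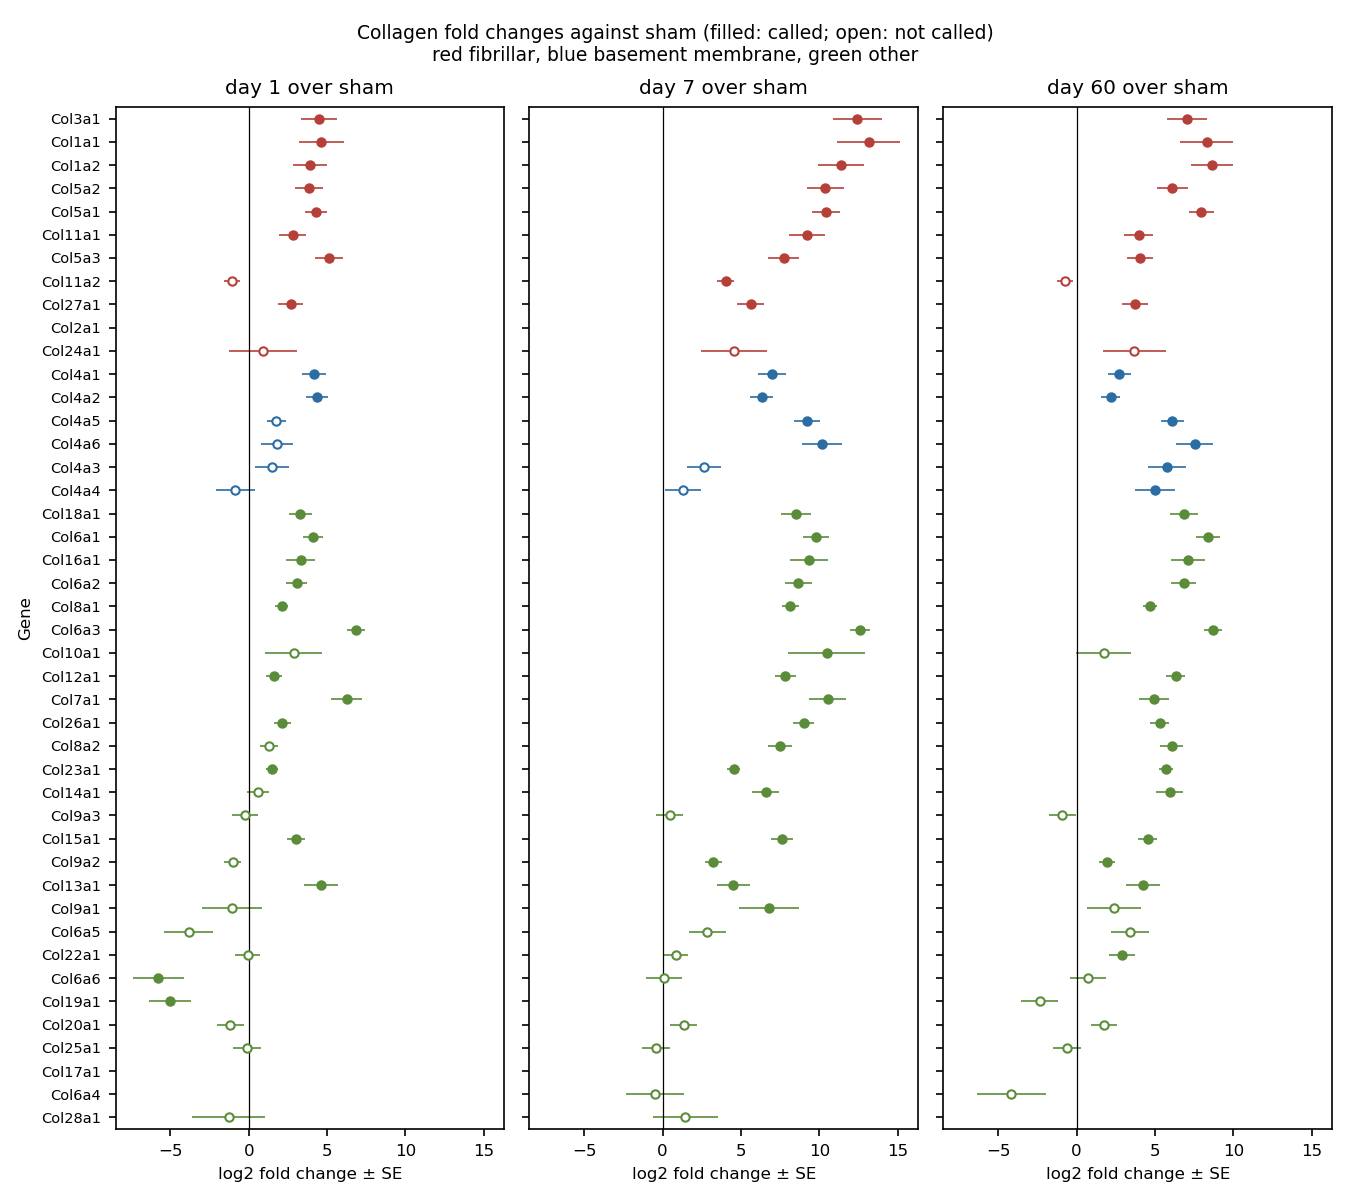
Log2 fold change over sham with its standard error for each collagen at days 1, 7 and 60, with filled points for genes called at an adjusted p under 0.05 and open points for the rest. Genes with 0 counts in either group of a comparison, such as Col2a1 and Col17a1, have no point. Col4a3 and Col4a4 are open at days 1 and 7 and filled at day 60, while Col11a2 is filled at day 7 alone.

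Among the others, the multiplexins Col18a1 and Col15a1 sit at the outer face of basement membranes, and the end of the Col18a1 chain is cut off as endostatin, an inhibitor of vessel growth. Col18a1 had 9.08 and 23.2 CPM in sham, 125 and 194 on day 1, 301 and 707 on day 3, 3784 and 8034 on day 7, 1316 and 2964 on day 21 and 1088 and 2634 on day 60. Col15a1 had 0.299 and 0.366 CPM in sham, 3.28 and 2.27 on day 1, 6.07 and 3.61 on day 3, 50.9 and 83 on day 7, 27.8 and 39.4 on day 21 and 4.47 and 11.4 on day 60. Both were highest at day 7, and at day 60 both libraries still stood above both sham libraries in each gene. The log2 fold change of Col18a1 over sham was 8.51 ± 0.96 (adjusted p = 0.000159) at day 7 and 6.84 ± 0.89 (adjusted p = 0.000554) at day 60. For Col15a1 it was 7.61 ± 0.68 (adjusted p = 5.37e-05) at day 7 and 4.54 ± 0.60 (adjusted p = 0.000585) at day 60.

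Type VI collagen forms beaded filaments around cells from Col6a1, Col6a2 and a longer chain, usually Col6a3. Col6a1 had 2.81 and 1.41 CPM in sham, 31.1 and 40.2 on day 1, 110.2 and 302 on day 3, 1374 and 2296 on day 7, 857 and 1241 on day 21 and 509.7 and 858 on day 60. Col6a2 had 3.4 and 4.5 CPM in sham, 20.0 and 45.9 on day 1, 86.4 and 254 on day 3, 1229 and 1983 on day 7, 579 and 1049.6 on day 21 and 325 and 582 on day 60. Col6a3 had 0.0597 and 0.135 CPM in sham, 12.7 and 13.8 on day 1, 25.9 and 56.3 on day 3, 649.7 and 770.0 on day 7, 75.1 and 93.2 on day 21 and 49.7 and 46.3 on day 60. In all 3 genes each stroke library stood above both sham libraries. Col6a3 had the largest log2 fold changes of the 3, at 6.85 ± 0.55 (adjusted p = 0.000334) on day 1 and 12.59 ± 0.67 (adjusted p = 3.07e-05) on day 7. Its calls against sham held at all 5 times with each library left out. Col6a1 was 9.78 ± 0.81 and Col6a2 8.66 ± 0.85 log2 units above sham at day 7, with adjusted p of 4.35e-05 and 8.12e-05.

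Col6a6, Col6a5 and Col6a4 encode chains that can take the place of Col6a3. Col6a6 had 2.09 and 1.17 CPM in sham, 0.111 and 0 on day 1, 0.506 and 0.311 on day 3, 1.68 and 1.71 on day 7, 3.58 and 8.31 on day 21 and 4.52 and 0.827 on day 60. It was lower than sham at day 1 (adjusted p = 0.0229), where both libraries together held 2 counts against 157 in sham, a depth-scaled ratio of 0.0122 (exact binomial 95% interval 0.00147 to 0.0449, counting error only). Its adjusted p was 0.0726 on leaving out sham replicate 1 and 0.066 for day 1 replicate 2 (range 0.0182 to 0.0726). Col6a5 was called higher at day 21 (4.32 ± 1.26, adjusted p = 0.0248), where it had 8.12 and 8.05 CPM against 0.179 and 0.577 in sham. The Col6a5 value was 0.135 and 0.0686 on leaving out sham replicates 1 and 2 and 0.0813 and 0.0786 for day 21 replicates 1 and 2 (range 0.0091 to 0.135). At day 60 Col6a5 was at adjusted p = 0.0569, and at 0.0337 with the replicate block. Col6a4 stayed at or below 0.597 CPM, with its highest mean in sham and 0 counts in both day 1 libraries. With all libraries edgeR did not call it. The DESeq2 Wald test did call it at day 1, along with Col6a5, which had 0.111 and 0 CPM on day 1.

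Fibril-associated collagens decorate fibrils without forming them. Col16a1 had 1.31 and 3.66 CPM in sham, 10.6 and 39.6 on day 1, 59.8 and 138 on day 3, 914 and 2312 on day 7, 215 and 615 on day 21 and 177 and 521 on day 60. Col12a1 had 1.55 and 2.81 CPM in sham, 6.67 and 6.99 on day 1, 26.4 and 79.9 on day 3, 425 and 578 on day 7, 175 and 204 on day 21 and 187 and 166 on day 60. Col14a1 had 2.03 and 1.97 CPM in sham, 1.22 and 4.68 on day 1, 5.7 and 20.1 on day 3, 137 and 243 on day 7, 127 and 212 on day 21 and 92.6 and 152 on day 60. All 3 were highest at day 7, and the day 7 and day 21 libraries of Col14a1 overlapped. At day 7 the log2 fold changes over sham were 9.32 ± 1.22 for Col16a1, 7.82 ± 0.66 for Col12a1 and 6.57 ± 0.87 for Col14a1 (adjusted p = 0.000315, 4.59e-05 and 0.00034 in that order). Col9a2, a cartilage chain, rose at day 7 (3.24 ± 0.56, adjusted p = 0.00132). It was also called higher at days 21 and 60, calls that did not hold with each library left out. At day 3 it passed with the replicate block alone (adjusted p = 0.0488, against 0.103 without it). Col9a1 rose to 7.32 and 13.4 CPM on day 7, against 0.119 and 0.0770 in sham (adjusted p = 0.0163), which was 0.0788 and 0.103 on leaving out sham replicates 1 and 2 and 0.0666 for day 7 replicate 2 (range 0.000509 to 0.103). Col22a1 was called at days 21 and 60 alone, at 2.75 ± 0.81 and 2.90 ± 0.81 log2 units. Its adjusted p was 0.0254 at day 21, and 0.112 and 0.114 on leaving out sham replicates 1 and 2 and 0.0869 and 0.0977 for day 21 replicates 1 and 2 (range 0.0224 to 0.114). It was 0.0225 at day 60, and 0.103 and 0.106 on leaving out sham replicates 1 and 2 and 0.103 for day 60 replicate 2 (range 0.0203 to 0.106).

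Col19a1, which in mouse brain is known from interneurons, went the other way. It had 3.4 and 4.29 CPM in sham, 0.111 and 0.121 on day 1, 0.316 and 0.183 on day 3, 0 and 0 on day 7, 0.504 and 0.0537 on day 21 and 0.344 and 1.12 on day 60. Both sham libraries lay above every stroke library, and the 2 day 7 libraries held 0 counts. At day 7 Col19a1 was at least 33.5-fold lower than in sham against a floor of 3 counts per library (adjusted p = 0.00246), and this call held with each library left out. It was also lower at day 1 (-5.02 ± 1.36, adjusted p = 0.0226), day 3 (-3.99 ± 1.29, adjusted p = 0.0421) and day 21 (-3.92 ± 1.29, adjusted p = 0.0439). At day 1 the adjusted p was 0.0643 and 0.0823 on leaving out sham replicates 1 and 2 and 0.106 and 0.0775 for day 1 replicates 1 and 2 (range 0.0209 to 0.106), at day 3 it was 0.1 and 0.136 on leaving out sham replicates 1 and 2 and 0.109 and 0.153 for day 3 replicates 1 and 2 (range 0.0354 to 0.153), and at day 21 it was 0.104 and 0.137 on leaving out sham replicates 1 and 2 and 0.211 for day 21 replicate 2 (range 0.0388 to 0.211).

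Neuron markers fell in the same libraries. Of 10, among them Slc17a7, Snap25 and Nefl, 9 were lower than sham at day 1 and 10 at each later time. Over all genes 13.9% to 19.8% were called lower at those times. None of the 10 was at 0 over a group. Their summed level was 5673 and 5888 CPM in sham, 455 and 1060 on day 1, 308 and 626 on day 3, 167 and 114 on day 7, 611 and 628 on day 21 and 690.0 and 723 on day 60. The part of neuronal RNA in the Col19a1 level was not tested. Col25a1, a transmembrane collagen made by neurons, had its highest mean in sham too, ranged from 0.340 to 4.10 CPM over all libraries and was not called.

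The short-chain network collagens Col8a1 and Col8a2 are known from vessel walls and from the membrane beneath the corneal endothelium. Col8a1 had 4.6 and 5.13 CPM in sham, 20.0 and 21.8 on day 1, 48.9 and 71.2 on day 3, 1606 and 1168 on day 7, 185 and 137 on day 21 and 165 and 85.8 on day 60. Col8a2 had 1.25 and 2.47 CPM in sham, 3.5 and 5.77 on day 1, 4.11 and 13.9 on day 3, 424 and 263 on day 7, 167 and 105 on day 21 and 141 and 113 on day 60. In both genes day 7 stood above all other groups, with replicate 1 the higher library. Col8a1 rose at all 5 times against sham, by 8.15 ± 0.54 (adjusted p = 3.07e-05) log2 units at day 7. Col8a2 was 7.50 ± 0.76 (adjusted p = 9.47e-05) above sham at day 7 and 6.06 ± 0.71 (adjusted p = 0.000318) at day 60.

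Col10a1, another short-chain collagen and a marker of hypertrophic cartilage cells, was singled out after its values were seen. It had 0.0597 and 0.683 CPM in sham, 0.111 and 6.08 on day 1, 1.2 and 19.7 on day 3, 787 and 443 on day 7, 0.952 and 2.62 on day 21 and 0 and 2.67 on day 60. Both day 7 libraries stood far above the other 10, the highest of which had 19.7 CPM. It was called against sham at day 7 (10.46 ± 2.46, adjusted p = 0.00668), which was 0.0541 on leaving out sham replicate 1 (range 0.0038 to 0.0541). At day 3 it was at adjusted p = 0.0956, and at 0.0212 with the replicate block. Its log2 difference of day 60 over day 7 was -8.74 ± 2.29 (adjusted p = 0.0625), and with the replicate block adjusted p = 0.00319. Its exons overlap those of Nt5dc1 by 18 bases on the opposite strand.

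Col7a1, which makes the anchoring fibrils of skin, had 0.179 and 0.423 CPM in sham, 42.4 and 8.58 on day 1, 44.5 and 65.6 on day 3, 289 and 695 on day 7, 11.9 and 30.6 on day 21 and 14.5 and 6.13 on day 60. It was 6.25 ± 1.0 (adjusted p = 0.00268) log2 units above sham at day 1 and 10.53 ± 1.18 (adjusted p = 0.000152) at day 7, and its 5 calls against sham held with each library left out. Col26a1, of no assigned type, had 1.19 and 0.356 CPM in sham, 2.78 and 3.52 on day 1, 19.6 and 31.7 on day 3, 373 and 357 on day 7, 33 and 37.2 on day 21 and 30.5 and 25.8 on day 60. Its log2 fold change at day 7 was 8.99 ± 0.68 (adjusted p = 3.59e-05).

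The transmembrane collagen Col23a1 had its highest mean at day 60. It had 6.09 and 6.81 CPM in sham, 15.3 and 20.9 on day 1, 36.1 and 54.3 on day 3, 119.8 and 179.8 on day 7, 227 and 319 on day 21 and 285 and 394 on day 60. Its groups did not overlap each other except at days 21 and 60, and from sham to day 60 each group mean was above the one before. The log2 fold change over sham was 4.54 ± 0.43 (adjusted p = 7.26e-05) at day 7 and 5.72 ± 0.46 (adjusted p = 5.22e-05) at day 60. Over day 7 the day 60 level was 1.18 ± 0.38 (adjusted p = 0.108) log2 units higher, short of the threshold, and with the replicate block adjusted p = 0.0107. Col13a1, found at nerve-muscle junctions, rose as early as day 1, with 18.7 and 16.2 CPM against 0 and 1.25 in sham (4.61 ± 1.08, adjusted p = 0.0113). At day 3 Col13a1 was at adjusted p = 0.0552, and at 0.0118 with the replicate block. Col17a1, a part of hemidesmosomes, had 0 counts in both sham libraries and at most 2.67 CPM in any library. It was called higher than sham at days 1, 21 and 60, and none of these calls held with each library left out. At day 21 it was at least 14.7-fold higher than in sham (adjusted p = 0.0237), a value of 0.0748 and 0.138 on leaving out sham replicates 1 and 2 and 0.116 for day 21 replicate 2 (range 0.0181 to 0.138).

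The 27 other collagens thus counted 13, 13, 17, 18 and 17 higher than sham at days 1, 3, 7, 21 and 60, and 2, 1, 1, 1 and 0 lower. Besides Col24a1, Col25a1 and Col6a4, the genes with no call against sham were Col20a1, with 0.418 to 4.98 CPM, Col28a1, with at most 0.735 CPM, and Col9a3. Col9a3 ranged from 5.28 to 118 CPM and was highest at day 21, where its adjusted p was 0.123, and 0.0035 with the replicate block. Its exons overlap those of Tcfl5 by 234 bases on the opposite strand.

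Comparisons between times ask when the collagens rose and whether they came down. At day 3 against day 1 6 collagens were higher and 0 lower, against 3.57% of all genes called, 3.09% higher and 0.480% lower. They were Col4a5, Col4a6, Col5a1, Col6a1, Col12a1 and Col26a1. This count was 0 when day 1 replicate 1 or day 3 replicate 2 was left out and 1 when it was day 1 replicate 2. With the replicate block it was 19. The largest log2 difference was 4.36 ± 0.96 (adjusted p = 0.0373) in Col4a6, where the adjusted p was 0.189 and 0.135 on leaving out day 1 replicates 1 and 2, 0.132 for day 3 replicate 2, 0.0538 and 0.0532 for day 7 replicates 1 and 2, 0.0612 and 0.0618 for day 21 replicates 1 and 2 and 0.0523 and 0.0531 for day 60 replicates 1 and 2 (range 0.00773 to 0.189).

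At day 7 against day 3 20 were higher and 0 lower, against 6.29% of all genes called, 3.06% higher and 3.22% lower. They were 4 of 11 fibrillar, 4 of 6 basement membrane and 12 of 27 other genes. The largest log2 difference among them was 5.24 ± 0.68 (adjusted p = 0.00994) in Col8a2, where the adjusted p was 0.0696 and 0.0556 on leaving out day 7 replicates 1 and 2 (range 0.00945 to 0.0696). The differences of the 3 most abundant genes did not pass, at 4.50 ± 1.42 (adjusted p = 0.0881) for Col1a1, 4.17 ± 1.12 (adjusted p = 0.0567) for Col3a1 and 3.74 ± 1.06 (adjusted p = 0.0638) for Col1a2. With the replicate block these passed, with adjusted p of 0.00863, 0.0024 and 0.00165 in that order. The count of 20 was 0 without either day 7 library, 5 when day 3 replicate 1 was left out, and 13 when day 3 replicate 2 or day 21 replicate 1 was left out, so no call of this comparison held in every such fit.

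At day 21 against day 7 3 were lower and 0 higher, against 0.441% of all genes called, 0.198% lower and 0.243% higher. They were Col26a1, at -3.38 ± 0.52 (adjusted p = 0.0309), Col8a1, at -3.11 ± 0.43 (adjusted p = 0.0197), and Col6a3, at -3.08 ± 0.44 (adjusted p = 0.021). The count was 15 with the replicate block. It was 0 without either day 7 library or either day 21 library, and 5 without either day 1 library. The adjusted p of Col8a1 was 0.178 and 0.142 on leaving out day 7 replicates 1 and 2 and 0.185 and 0.235 for day 21 replicates 1 and 2 (range 0.0252 to 0.235). For Col6a3 it was 0.165 and 0.186 on leaving out day 7 replicates 1 and 2 and 0.294 and 0.216 for day 21 replicates 1 and 2 (range 0.0109 to 0.294), and for Col26a1 0.182 and 0.192 on leaving out day 7 replicates 1 and 2, 0.322 and 0.253 for day 21 replicates 1 and 2 and 0.0585 for day 60 replicate 1 (range 0.011 to 0.322). At day 60 against day 21 edgeR called 0 collagens (0% of all genes), 8 had an unadjusted p under 0.05 and DESeq2 called 2, both lower.

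At day 60 against day 7 13 were lower and 1 higher, against 3.95% of all genes called, 2.39% lower and 1.55% higher, and 27 were called with the replicate block, 23 of them lower. The 13 were Col7a1, Col3a1, Col11a1, Col11a2, Col5a2, Col5a3, Col4a1, Col4a2, Col4a5, Col6a3, Col8a1, Col15a1 and Col26a1. The median log2 fold change was -4.30 over the fibrillar genes, -2.88 over the basement membrane genes and -1.43 over the others, against 0.01 over all genes tested. The difference between classes was not tested. The calls of Col8a1, at -3.47 ± 0.43 (adjusted p = 0.00531), and Col11a2, at -4.74 ± 0.58 (adjusted p = 0.00531), held with each library left out. The call of Col3a1, at -5.36 ± 1.19 (adjusted p = 0.0386), did not, with adjusted p of 0.0618 and 0.0608 on leaving out sham replicates 1 and 2, 0.0824 and 0.157 for day 7 replicates 1 and 2, 0.0636 and 0.0576 for day 21 replicates 1 and 2 and 0.242 and 0.0922 for day 60 replicates 1 and 2 (range 0.0209 to 0.242). The count of 14 was 6 when day 7 replicate 1 was left out, 4 for day 7 replicate 2, 3 for day 60 replicate 1 and 6 for day 60 replicate 2. Col1a1 was at -4.84 ± 1.45 (adjusted p = 0.0914), and with the block adjusted p = 0.0123. The gene that was higher was Col19a1, with 0.344 and 1.12 CPM on day 60 and 0 counts at day 7 (adjusted p = 0.0497), a value of 0.0825 and 0.0905 on leaving out sham replicates 1 and 2, 0.0559 and 0.0558 for day 3 replicates 1 and 2, 0.17 and 0.308 for day 7 replicates 1 and 2, 0.0555 and 0.056 for day 21 replicates 1 and 2 and 0.111 and 0.106 for day 60 replicates 1 and 2 (range 0.0481 to 0.308).

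Per kilobase of the principal transcript, mean levels can be ranked across genes, and part of that order changed with the length used. In sham and at day 1 Col4a1 led, with 9.6 and 174 CPM per kb, and at day 3 Col3a1 led with 826. These 3 groups had the same leader when the union of all annotated exons was the length. At day 7 Col3a1 had 14845, Col1a1 9463 and Col1a2 8351 CPM per kb of principal transcript. With the exon union Col1a1 had 8551, Col3a1 8414 and Col1a2 3594 CPM per kb, so the first 2 changed places. At day 21 Col1a2 led with 2412 CPM per kb of principal transcript, but with the exon union Col1a1 led with 1141, against 1038 for Col1a2. At day 60 Col1a2 led with either length, at 1254 CPM per kb of principal transcript and 540 CPM per kb of exon union.

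The ratio of chains within a library is free of the scaling between libraries, and no test was made on it. Type I collagen holds 2 Col1a1 chains to 1 Col1a2 chain. The transcript ratio of Col1a1 to Col1a2 per kb was 0.54 and 0.21 in sham, 0.18 and 0.61 on day 1, 0.44 and 0.72 on day 3, 1.07 and 1.16 on day 7, 0.47 and 0.55 on day 21 and 0.22 and 0.28 on day 60. The day 7 pair was highest, and both day 60 libraries lay below both day 21 libraries. Whether a ratio exceeds 1 rests on the length used. It does so in both day 7 libraries and no other with the principal transcript, but in 6 of 12 libraries with the union of all annotated exons, which makes each ratio 2.10 times as large and leaves the order of the libraries as it is. The ratio of Col3a1 to Col1a1 was 2.24 and 3.13 in sham, 7.28 and 2.16 on day 1, 3.03 and 1.84 on day 3, 1.44 and 1.61 on day 7, 1.13 and 1.03 on day 21 and 1.04 and 1.11 on day 60. With the exon union each of these is 0.627 times as large, which puts the 4 libraries of days 21 and 60 at 0.644 to 0.711.

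Col4a1 to Col4a2 lay between 1.22 and 2.68, and it was larger in replicate 2 than in replicate 1 in 6 of 6 groups. Col4a5 to Col4a6 lay between 1.92 and 2.96 in the 8 libraries from day 3 on. It was higher on day 1, at 5.70 and 5.13 on 15 and 104 counts of Col4a6. In sham it was 1.48 and 47.3, on 11 and 4 counts of Col4a6. The ratio of Col4a3 to Col4a4 was 3.17 and 2.02 on day 21 and 3.06 and 1.79 on day 60, and in the other 8 libraries it rests on 4 to 58 counts of Col4a4. Col6a1 to Col6a2 was 0.79 and 0.30 in sham and 0.84 to 1.51 afterwards, and with the exon union each is 1.97 times as large. Col3a1 to Col5a2, neighbours on the chromosome, ranged from 5.13 in a sham library to 32.0 in a day 7 library.

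**Figure D5:**
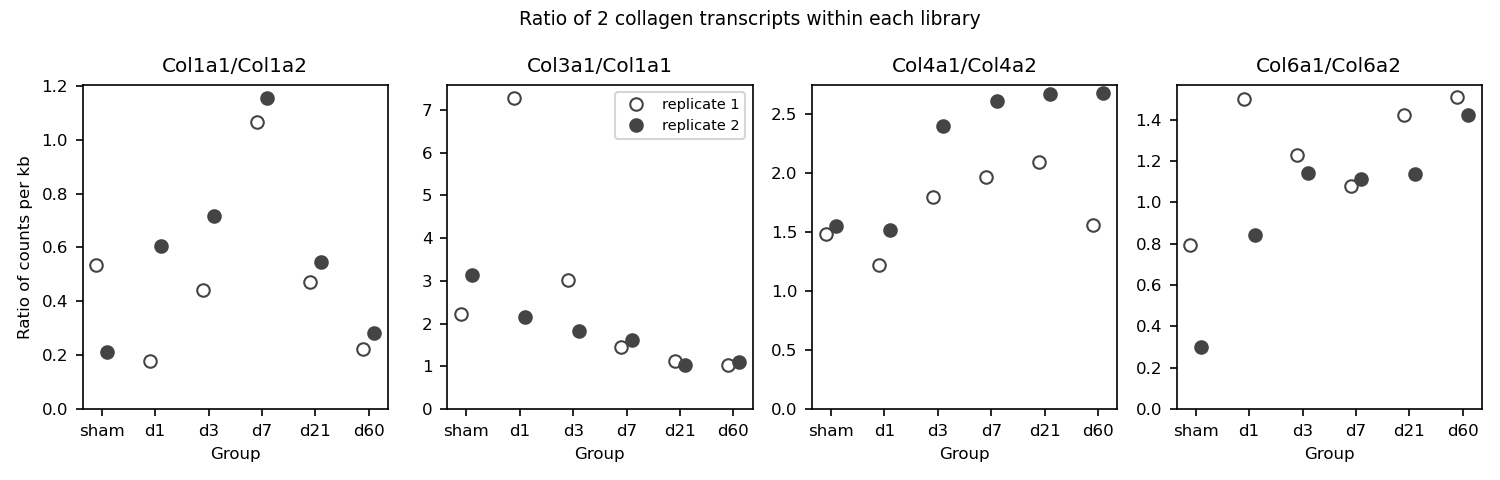
Ratio of counts per kilobase within each library for 4 pairs of collagen genes, with the principal transcript as length; open circles are replicate 1 and filled circles replicate 2. The ratio of Col1a1 to Col1a2 is highest in the pair of day 7 libraries, and the ratio of Col3a1 to Col1a1 is lowest in the 4 libraries of days 21 and 60; the heights, but not these orders, depend on the length used.

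Genes that make, cut, bind and degrade collagen were counted in lists chosen for those roles. Over all genes 16.7%, 18.0%, 23.2%, 17.8% and 16.8% were called higher than sham at days 1, 3, 7, 21 and 60. At those times 13.9%, 14.2%, 19.8%, 15.4% and 14.8% were called lower. Of 17 genes for prolyl and lysyl modification and folding in the endoplasmic reticulum, 13, 13, 14, 14 and 14 were higher than sham at days 1, 3, 7, 21 and 60, with 1 lower at day 7. Their largest median log2 fold change was 3.80 at day 7. Serpinh1, the chaperone of the collagen helix, had 3275 and 2802 CPM on day 7, against 36.4 and 26.8 in sham (6.59 ± 0.47, adjusted p = 3.52e-05). Leprel2, a prolyl 3-hydroxylase also called P3h3, was 6.85 ± 0.55, the related Lepre1 5.86 ± 0.58 and the folding enzyme Fkbp10 6.12 ± 0.52 log2 units above sham. The gene that fell was Colgalt2, a collagen galactosyltransferase, with 2.15 and 1.12 CPM on day 7, against 6.57 and 7.74 in sham (adjusted p = 0.0155). The Colgalt2 value was 0.0557 with sham replicate 2 left out and 0.118 with day 7 replicate 2 left out (range 0.00614 to 0.118).

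Of 13 genes for procollagen cleavage and crosslinking, 10, 10, 9, 10 and 10 were higher at the 5 times and none lower, with a largest median of 5.94 at day 7. The day 1 count was 6 without sham replicate 1. Lox, the lysyl oxidase that starts crosslinks, had 1126 and 715 CPM on day 7, against 3.29 and 2.15 in sham (8.41 ± 0.66, adjusted p = 3.91e-05). Its relatives Loxl1 and Loxl2 were 9.38 ± 0.60 and 8.89 ± 1.73 log2 units above sham. Adamts2, which cuts off the amino-terminal propeptide, was 7.95 ± 0.66.

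All 9 collagen receptors were higher than sham at day 7, and 5, 8, 8 and 7 were at days 1, 3, 21 and 60. Single libraries moved these counts. The day 3 count was 4 without sham replicate 1 and 5 without sham replicate 2, the day 21 count was 5 without day 21 replicate 1, and the day 60 count was 4 without sham replicate 1 or day 60 replicate 2. Mrc2, the receptor that takes up collagen fragments, had 625 and 771 CPM on day 7, against 2.09 and 2.9 in sham (8.12 ± 0.46, adjusted p = 3.07e-05). Itga11, an integrin chain of fibroblasts, was 6.43 ± 0.80 and the receptor kinase Ddr2 4.07 ± 0.41. Itga2, an integrin chain for collagen, was 4.26 ± 1.16 at 1.61 and 1.26 CPM, against 0.179 and 0.0192 CPM in sham (adjusted p = 0.0138, and 0.0883 without sham replicate 2, in a range of 0.0105 to 0.0883).

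Of 6 collagenases, gelatinases and Ctsk, a cysteine protease that cuts collagen, 5, 6, 6, 6 and 5 were higher and none lower. Their median log2 fold change over sham was 7.06 at day 7 and 7.33 at day 60. Set directly against day 7, day 60 had a median of -1.35, with 1 of the 6 called higher and none lower. In that comparison 1.55% of all genes were called higher and 2.39% lower. The summed level of the 6 was 2519 and 3158 CPM on day 60, against 5496 and 6299 CPM on day 7. The gene called higher was Mmp9, a gelatinase, with 368 and 618 CPM on day 60, against 77.5 and 99.4 CPM on day 7 (log2 difference 2.48 ± 0.58, adjusted p = 0.0459). That value was 0.246 and 0.191 on leaving out day 7 replicates 1 and 2, 0.122 and 0.121 for day 60 replicates 1 and 2, 0.0565 and 0.0558 for day 3 replicates 1 and 2 and 0.0828 and 0.0752 for day 21 replicates 1 and 2 (range 0.0262 to 0.246). Mmp13, a collagenase, had 166 and 288 CPM on day 60, against 0.358 and 0 in sham (11.05 ± 1.70, adjusted p = 0.00135). The gelatinases Mmp2 and Mmp9 were 8.58 ± 0.85 and 7.94 ± 0.75 log2 units above sham at day 60, and Ctsk was 6.73 ± 0.70. Neutrophils are known to carry Mmp8 and Mmp9, and markers of infiltrating leukocytes were measured beside them. Their summed level was 28.9 and 19.0 CPM in sham, 104 and 204 on day 1, 4357 and 3409 on day 3, 4460 and 5630 on day 7, 1182 and 2261 on day 21 and 1277 and 1749 on day 60. Most of the sum from day 3 on was Lyz2, with means of 3650, 4870, 1650 and 1460 CPM at days 3, 7, 21 and 60. At those times Ms4a7 and Ptprc came next, with means of at most 103 CPM, and S100a8 and S100a9 lay below both. Of the 10 leukocyte markers 3, 6, 5, 4 and 4 were higher than sham at days 1, 3, 7, 21 and 60. At day 7 1 was lower, where 23.2% of all genes were called higher and 19.8% lower. The sum of 8 microglia markers was highest at day 7, with 3511 and 2902 CPM, against 527 and 733 CPM in sham, and 4 of them were higher. At day 60 it was 370 and 542 CPM, and 4 were lower than sham, where 14.8% of all genes were called lower. Cd3e was at 0 in sham. The part of leukocytes and microglia in the protease levels was not tested.

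Of 12 basement membrane partners 8, 8, 11, 10 and 10 were higher at the 5 times and none lower, with a largest median of 5.20 at day 7. Nid1, which bridges type IV collagen and laminin, had 2202 and 2497 CPM on day 7, against 8 and 9.6 in sham (8.06 ± 0.59, adjusted p = 3.59e-05). The second bridging protein Nid2 was 6.13 ± 0.58, and the laminin chains Lama1 and Lamb1 were 7.87 ± 0.55 and 6.66 ± 0.64 log2 units above sham.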

How the data were processed

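RNA of sorted cells was sequenced in 12 libraries. Bowtie2 2.3.4.2, the counter HTSeq 0.6.1 and the mm10 build are named, per the submitters' processing notes, with no further settings. The authors deposited raw counts per gene symbol, identical in 189288 of 189288 values between the sample files and the table of the series. The annotation, strand setting and handling of shared reads are not given in the sources used here. Col21a1 was not analysed here.

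Counts were tested in R 4.3.3 with edgeR 4.0.16 (TMM factors 0.689 to 1.22, filterByExpr with a minimum count of 10, 15635 genes, all 12 libraries in 1 quasi-likelihood fit with 6 residual and 4.15 prior degrees of freedom, median biological coefficient of variation 0.408). Adjusted p is by Benjamini-Hochberg within a comparison, called under 0.05. The standard error is the fold change divided by the square root of F. The procedure was tested on simulated data with changes planted at day 7. Against sham it recovered 10% of 4-fold and 69% of 16-fold changes, so a gene that was not called may still differ. CPM divides a count by the TMM-scaled library total. Shares use plain totals. Levels per kb use the principal transcript of GENCODE M21 (GRCm38), and promoters come from RefSeq (GRCm38.p6). P3h1 to P3h4 and Colgalt1 stand in the table as Lepre1, Leprel1, Leprel2, Leprel4 and Glt25d1.

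Whether replicate numbers pair samples was checked by correlating the difference of replicate 2 from replicate 1 over genes between groups. All 15 pairs of groups gave 0.319 to 0.713, above the threshold of 0.1. Replicate number also splits depth in every group, so pairing of samples and a shared effect of depth cannot be told apart. The calls reported above come from the fit without the replicate number, unless the block is named. A fit that adds this number as a replicate block, leaving 5 residual degrees, is quoted where it changes a call against sham or moves a count by over 1.5 times. Other alternatives were DESeq2 1.42.0, its size factors in edgeR, no filter, and leaving out each library, whose partner is then assumed to vary like the other groups.

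Members, lists and the naming rule were chosen with earlier results of these data known. The rule gives all 12 values for the 5 highest genes of each class, for genes lower than sham and for genes called between times, and up to 4 called genes per list. Other members given with values, and Colgalt2, were chosen after their values were seen.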

Additional observations from a re-analysis of the deposited data

Results flagged for a closer look

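Each value below is a log2 fold change between 2 times after stroke that passed the edgeR test at an adjusted p under 0.05, so that the effect of stroke against the shared sham libraries differed between those times. Groups of 2 libraries are too small for the test of a single outlying sample.

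At day 3 over day 1 the values were 2.96 for Col12a1, 3.02 for Col26a1, 3.13 for Col4a5, 4.36 for Col4a6, 3.37 for Col5a1 and 2.53 for Col6a1.

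At day 7 over day 3 the fibrillar values were 4.10 for Col11a1, 4.02 for Col11a2, 2.78 for Col5a1 and 3.91 for Col5a2. The basement membrane values were 3.16 for Col4a1, 2.89 for Col4a2, 4.33 for Col4a5 and 3.98 for Col4a6. The other values were 3.24 for Col12a1, 3.87 for Col14a1, 3.80 for Col15a1, 4.02 for Col16a1, 3.55 for Col18a1, 1.73 for Col23a1 and 3.83 for Col26a1. They were 3.15 for Col6a1, 3.24 for Col6a2, 4.11 for Col6a3, 4.53 for Col8a1 and 5.24 for Col8a2.

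At day 21 over day 7 they were -3.38 for Col26a1, -3.08 for Col6a3 and -3.11 for Col8a1.

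At day 60 over day 7 the fibrillar values were -5.26 for Col11a1, -4.74 for Col11a2, -5.36 for Col3a1, -4.29 for Col5a2 and -3.68 for Col5a3. The basement membrane values were -4.23 for Col4a1, -4.14 for Col4a2 and -3.12 for Col4a5. The other values were -3.07 for Col15a1, -3.70 for Col26a1, -3.89 for Col6a3, -5.58 for Col7a1 and -3.47 for Col8a1. For Col19a1 the fitted value was 8.61, which depends on the prior count because day 7 held 0 counts, and against a floor of 3 counts per library the gene was at least 6.37-fold higher at day 60.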

How the results depend on the processing

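Against sham the counts of called collagens stayed within 1.5 times of those reported under DESeq2 size factors, no filter, the replicate block and DESeq2, and no result reversed. Scaling by DESeq2 size factors shifted the all-gene median log2 fold change over sham by between -0.10 and -0.15, and no collagen call changed with it. With the replicate block the count was 19 at day 3 against day 1, 15 at day 21 against day 7 and 27 at day 60 against day 7. The DESeq2 Wald test gave 18, 17 and 28 for these and 2 at day 60 against day 21. The cause of these differences was not tested. With each library left out in turn the counts ran from 12 to 27 at day 1, 22 to 27 at day 3, 30 to 34 at day 7, 26 to 34 at day 21 and 23 to 32 at day 60 against sham. They ran from 0 to 8 at day 3 against day 1, 0 to 24 at day 7 against day 3, 0 to 5 at day 21 against day 7, 0 to 0 at day 60 against day 21 and 3 to 18 at day 60 against day 7. These fits have fewer libraries. Among results for the genes named by the rule and for the counts of the gene lists, the block brought 40 past the threshold. The other 265 kept their call or, for a list, a count within 1.5 times. Collagens outside the naming rule are not in these numbers. The second choice of length, which moved 25 of 42 chain ratios, and the repeats for the gene lists were added after seeing the data. Replicate 1 is the shallower library, and genes under about 1 CPM, such as Col24a1 and Col28a1, rest on few counts there.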
